A study of Homo sapiens with 8 samples.

Results

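The genes described here were 8 genes of secreted plasma proteins, chosen by name: the 3 fibrinogen chain genes FGA, FGB and FGG, the protease inhibitor genes SERPINA1 and SERPINA3, and the genes of lipocalin-2 (LCN2), haptoglobin (HP) and transferrin (TF). They were 8 of the 60664 gene rows in the count table, found by matching each row's Ensembl identifier to its symbol, and 6 of them had at least 1 count. The study asked how the transcriptome of A549 cells, a human lung adenocarcinoma cell line of alveolar epithelial origin, responded to interferon-γ (IFN-γ) and how this response was altered by AX-0085, a kinase inhibitor. RNA-Seq libraries came from 4 groups of 2 libraries each. Untreated cells received neither agent. IFN-γ cells received the cytokine, given in the labels as 20 ng without a volume. The paper's general dose is 20 ng/mL. AX-0085 cells received the inhibitor at 0.5 μM. Cells of the fourth group, called IFN-γ + AX-0085 here, received IFN-γ for 24 h before the inhibitor was added, and harvest followed after another 24 h. The same times are given for all 4 groups. The labels do not say whether the 2 libraries of a group came from separate cultures, so p-values measure the spread between these libraries. All 4 groups were 1 cell line in culture.

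Fibrinogen is the soluble precursor of fibrin, the protein mesh of a blood clot. It is a dimer built from pairs of α, β and γ chains, encoded by FGA, FGB and FGG, and the liver makes nearly all of the plasma protein. During inflammation, interleukin-6 (IL-6) type cytokines act through the receptor subunit gp130 and the transcription factor STAT3, together with C/EBP and hepatocyte nuclear factors, to raise the transcription of acute-phase genes. Fibrinogen, α1-antitrypsin (SERPINA1), α1-antichymotrypsin (SERPINA3), haptoglobin and lipocalin-2 are positive acute-phase proteins, while transferrin is a negative one. IFN-γ signals through JAK kinases, and epithelial cells outside the liver, lung carcinoma cells among them, can also express some of these genes.

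Total counts per library ranged from 20672828 to 29978251, and a level of 3 counts corresponded to between 0.0959 and 0.158 CPM, the count scaled to the library size with TMM factors. An IFN-γ target gene checked the treatment labels. CD274, which encodes PD-L1, had 3 and 5 counts in untreated libraries, 104 and 161 with IFN-γ, and 14 and 10 with IFN-γ + AX-0085. The 6 epithelial markers, among them KRT8 and KRT18, summed to between 8821 and 9550 CPM in untreated, 5759 and 6089 in AX-0085, 6512 and 7398 in IFN-γ and 7221 and 7304 in IFN-γ + AX-0085 libraries. Of these, 5 were called lower with IFN-γ (median log2 change of the 6 -1.56, against -0.06 over all genes tested) and 3 higher when AX-0085 was added (median 0.99, against 0.03), in the same directions as the fibrinogen genes, and their part in the results was not tested. Over all genes tested, 17.2% were called lower with IFN-γ and 16.5% higher when AX-0085 was added. The 7 alveolar type II markers reached at most 3.66 CPM and 3 of them were at 0 in every library. Of 7 hepatocyte markers none passed 10 counts in any library. APOA2 and TAT were at 0 throughout and ALB had 2 counts in all 8 libraries together, while the summed hepatocyte markers lay between 0.285 and 0.496 CPM in untreated, 0.239 and 0.452 in AX-0085, 0.0402 and 0.106 in IFN-γ and 0.0899 and 0.192 in IFN-γ + AX-0085 libraries. Summed leukocyte, endothelial and erythroid markers reached at most 0.159, 0.529 and 0.916 CPM in a library. Of 5 fibroblast and 4 platelet markers, 1 each passed 10 counts, COL1A1 and ITGA2B, which are also expressed outside those cells. Both were called lower with IFN-γ, the summed fibroblast markers lying between 8.97 and 10.6 CPM in untreated, 9.24 and 9.75 in AX-0085, 3.01 and 4.33 in IFN-γ and 6.94 and 8.41 in IFN-γ + AX-0085 libraries. The platelet sums lay between 3.71 and 3.80, 1.62 and 1.75, 0.0804 and 0.528, and 1.66 and 1.73 CPM in the same order of groups, and GP9 and PPBP were at 0 in every library. The share of counts from mitochondrial genes was 2.72% and 3.55% in untreated, 4.12% and 5.73% in AX-0085, 1.71% and 1.82% in IFN-γ, and 2.87% and 3.43% in IFN-γ + AX-0085 libraries. This share and the COL1A1 and ITGA2B levels were lowest in the group with the lowest fibrinogen levels described next, and their part in those results was not tested.

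The fibrinogen genes form a cluster on chromosome 4. In the GENCODE 44 annotation of GRCh38, FGB lies on the plus strand at chr4:154563011-154572807, FGA on the minus strand at chr4:154583126-154590742 and FGG on the minus strand at chr4:154604134-154612967, with 10318 bases between FGB and FGA and 13391 between FGA and FGG. No exon base of the 3 genes overlaps another gene. Because these genes moved together, their RefSeq promoters are shown, from 250 bases before to 50 bases after the start, on the strand of the gene, in build GRCh38.p14. Capitals mark CTGGGA on either strand, a sequence known as the core of the IL-6 response element of fibrinogen genes.

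FGA (chr4:154590693-154590992, minus strand): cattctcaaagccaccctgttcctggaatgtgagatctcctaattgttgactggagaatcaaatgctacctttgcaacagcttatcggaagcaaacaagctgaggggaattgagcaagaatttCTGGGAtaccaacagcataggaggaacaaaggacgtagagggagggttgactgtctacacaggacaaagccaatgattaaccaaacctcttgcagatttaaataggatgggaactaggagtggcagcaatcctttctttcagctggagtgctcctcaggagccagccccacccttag
FGB (chr4:154562761-154563060, plus strand): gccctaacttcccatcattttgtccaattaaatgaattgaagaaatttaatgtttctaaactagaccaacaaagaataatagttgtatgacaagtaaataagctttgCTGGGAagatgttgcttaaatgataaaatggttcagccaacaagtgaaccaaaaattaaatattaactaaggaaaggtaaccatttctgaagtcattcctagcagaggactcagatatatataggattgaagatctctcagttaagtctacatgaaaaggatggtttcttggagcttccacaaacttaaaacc
FGG (chr4:154612607-154612906, minus strand): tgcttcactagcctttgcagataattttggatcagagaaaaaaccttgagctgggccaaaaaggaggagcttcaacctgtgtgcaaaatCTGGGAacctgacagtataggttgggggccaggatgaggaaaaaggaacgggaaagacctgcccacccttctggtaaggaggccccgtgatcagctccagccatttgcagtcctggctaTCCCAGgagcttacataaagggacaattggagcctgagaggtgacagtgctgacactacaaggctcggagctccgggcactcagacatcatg

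CTGGGA stood at position -127 of the FGA promoter, -143 of the FGB promoter and -161 of the FGG promoter, counted from the RefSeq start, and the FGG promoter held a second match on the opposite strand at -42. The RefSeq start of FGG used here lies 311 bases inside the GENCODE gene end. Of 35116 promoters of the same length, 33.3% held CTGGGA on either strand, so a match alone is common. The STAT-type palindrome TTCNNNGAA occurred at -231 in FGA alone among the fibrinogen promoters and in 7.66% of all promoters. The C/EBP-type pattern TTNNGNAA had at least 1 match in each fibrinogen promoter and in 36.8% of all promoters. These matches describe letters and not bound sites.

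Among the 6 genes with counts, FGA and FGB were the most abundant per length in untreated A549 cells. FGG followed, LCN2 was lower, and SERPINA1 and TF were close to the limit of the depth. In CPM per kilobase of merged exons, the untreated level of FGA was 4.86 ± 0.594 (SD, n = 2), of FGB 4.82 ± 0.239 and of FGG 3.08 ± 0.330. FGA and FGB did not differ beyond their spread on this scale. The levels of LCN2, SERPINA1 and TF were 0.949 ± 0.00668, 0.0929 ± 0.00219 and 0.00885 ± 0.00366 CPM per kilobase (SD, n = 2). For TF, 48.5% of the 26038 exon bases in this length lie inside the span of another gene. The part of this overlap in its level per length was not tested. With the length of the canonical transcript in place of the merged exons, FGA stood at 8.62, above FGB at 5.79 and FGG at 5.36, so the order of FGA and FGB depends on the length used. The order was not the same in the other groups. With IFN-γ, FGA was at 0.807 ± 0.155, LCN2 at 0.705 ± 0.108, FGG at 0.403 ± 0.0324 and FGB at 0.399 ± 0.239 (SD, n = 2), so LCN2 stood beside FGA, and FGG and FGB did not differ beyond their spread. In IFN-γ + AX-0085 cells FGA led at 3.57 ± 0.566, followed by FGG at 1.90 ± 0.588, FGB at 1.63 ± 0.0698 and LCN2 at 1.36 ± 0.0556, of which FGG and FGB did not differ beyond their spread.

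HP and SERPINA3 had 0 counts in all 8 libraries and are treated as not measured. The whole span of HP (chr16:72054505-72061055, plus strand) lies inside TXNL4B on the minus strand, and the whole span of SERPINA3 (chr14:94612384-94624055, plus strand) lies inside another annotated protein-coding gene, ENSG00000273259. Among 1999 protein-coding genes whose whole span lies inside other genes, 95.3% had 0 counts in every library, against 18.9% of 6822 protein-coding genes without any overlap. For the 712 nested genes that share no exon base with another gene the figure was 98.9%. A count of 0 for HP and SERPINA3 is therefore not read as absence of their RNA in these cells.

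**Figure D1:**
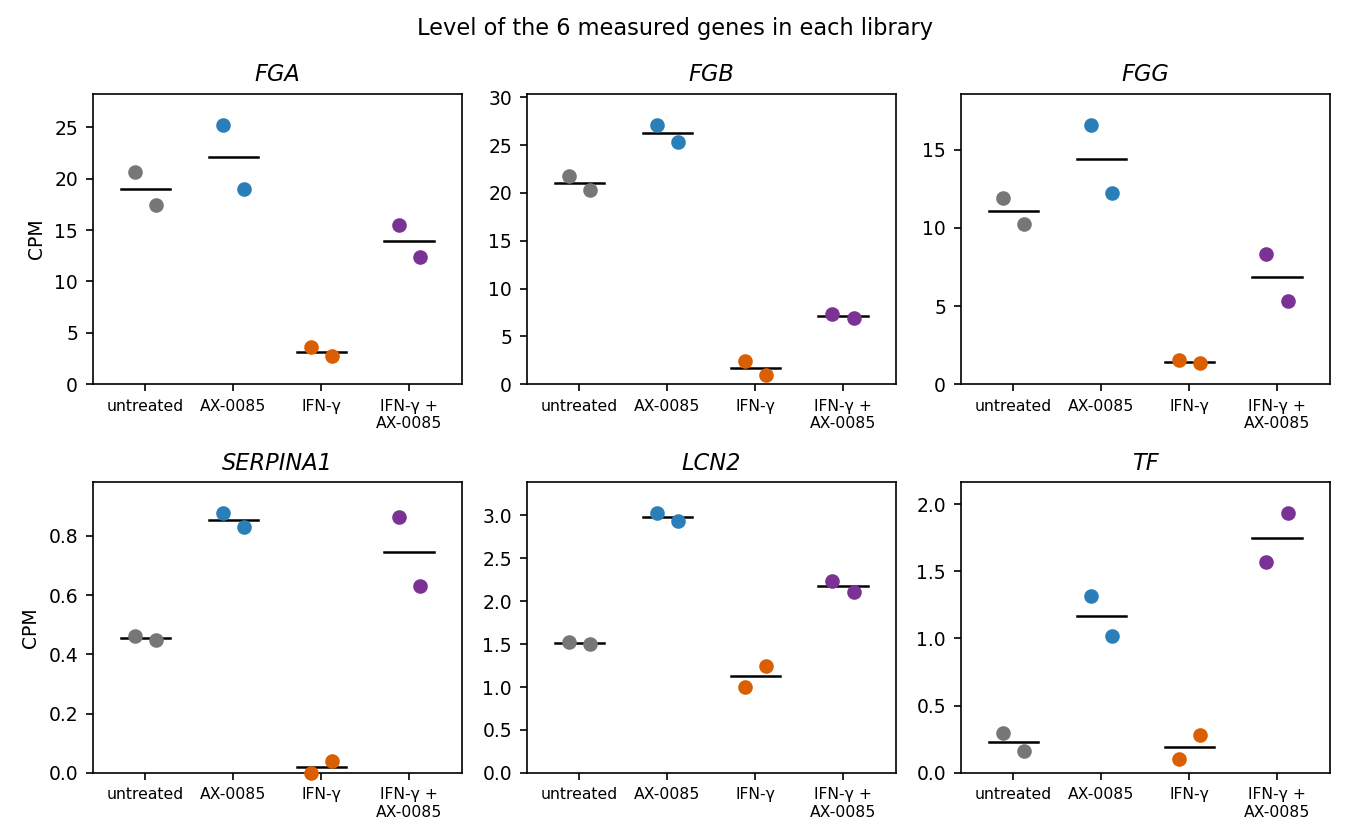
Level in CPM (TMM-scaled, linear axes from 0) of the 6 measured genes in each library, 2 points per group with the group mean as a line. FGA, FGB, FGG and SERPINA1 were lowest in the IFN-γ libraries, FGA falling from 20.7 and 17.4 to 3.59 and 2.73 CPM, while TF was high in the 4 libraries with AX-0085, between 1.02 and 1.93 CPM.

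IFN-γ lowered all 3 fibrinogen chain genes and SERPINA1, while LCN2 and TF did not pass the test. FGA had 625 and 427 counts in untreated libraries and 68 and 68 with IFN-γ, or 20.7 and 17.4 against 3.59 and 2.73 CPM. FGB, which had 659 and 499 counts in untreated libraries, had 47 and 25 with IFN-γ, or 21.8 and 20.3 against 2.48 and 1.01 CPM. FGG went from 361 and 252 counts to 29 and 34, or from 11.9 and 10.3 to 1.53 and 1.37 CPM. For each chain both IFN-γ libraries lay far below both untreated libraries, and the groups did not overlap. In bulk RNA, fewer cells that express a gene and less RNA of it per cell cannot be told apart. By the edgeR quasi-likelihood test with Benjamini-Hochberg adjustment over all 15066 genes tested, FGA was 6.12-fold lower (log2 fold change -2.61, SE 0.19, adjusted p = 5.63e-08), FGB was 12.7-fold lower (log2 fold change -3.67, SE 0.21, adjusted p = 4.24e-09) and FGG was 7.72-fold lower (log2 fold change -2.95, SE 0.26, adjusted p = 2.94e-07). The size of the FGB change depended on the IFN-γ library, with -3.04 on the log2 scale without IFN-γ replicate 2 and -4.37 without replicate 1.

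SERPINA1 encodes α1-antitrypsin, the main plasma inhibitor of neutrophil elastase. It lies on the minus strand at chr14:94376747-94390693. Its counts were 14 and 11 in untreated libraries and 0 and 1 with IFN-γ. The ratio of the summed counts, scaled by library size, was 20.0 (95% exact interval 3.27 to 821, counting error only), and the gene passed the edgeR quasi-likelihood test with Benjamini-Hochberg adjustment (adjusted p = 5.46e-04). Its fitted log2 change of -4.06 ranged from -3.35 without IFN-γ replicate 1 to -6.54 without replicate 2, and the IFN-γ group holds 1 count of this gene in all.

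LCN2 encodes lipocalin-2, an iron-carrier-binding protein secreted by epithelia and neutrophils, at chr9:128149071-128153453 on the plus strand. It had 46 and 37 counts in untreated libraries and 19 and 31 with IFN-γ, or 1.52 and 1.51 against 1.00 and 1.25 CPM. Although the groups did not overlap, the log2 difference of -0.41 (SE 0.24) did not pass the edgeR quasi-likelihood test with Benjamini-Hochberg adjustment (adjusted p = 0.145). TF, the gene of the iron carrier transferrin (chr3:133746040-133796641, plus strand), had 9 and 4 counts against 2 and 7, and these overlapping groups gave a log2 difference of -0.21 (SE 0.62). In TF, 48.5% of the 26038 exon bases lie inside the span of SRPRB on the same strand, which had between 1509 and 2847 counts per library, and the part of this overlap in the TF counts was not tested. Thus 4 of the 6 measured genes were called lower with IFN-γ. Over all genes tested, 17.2% were called lower and 10.3% higher in this comparison. A call required an adjusted p under 0.05 and a change of more than 2-fold.

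**Figure D2:**
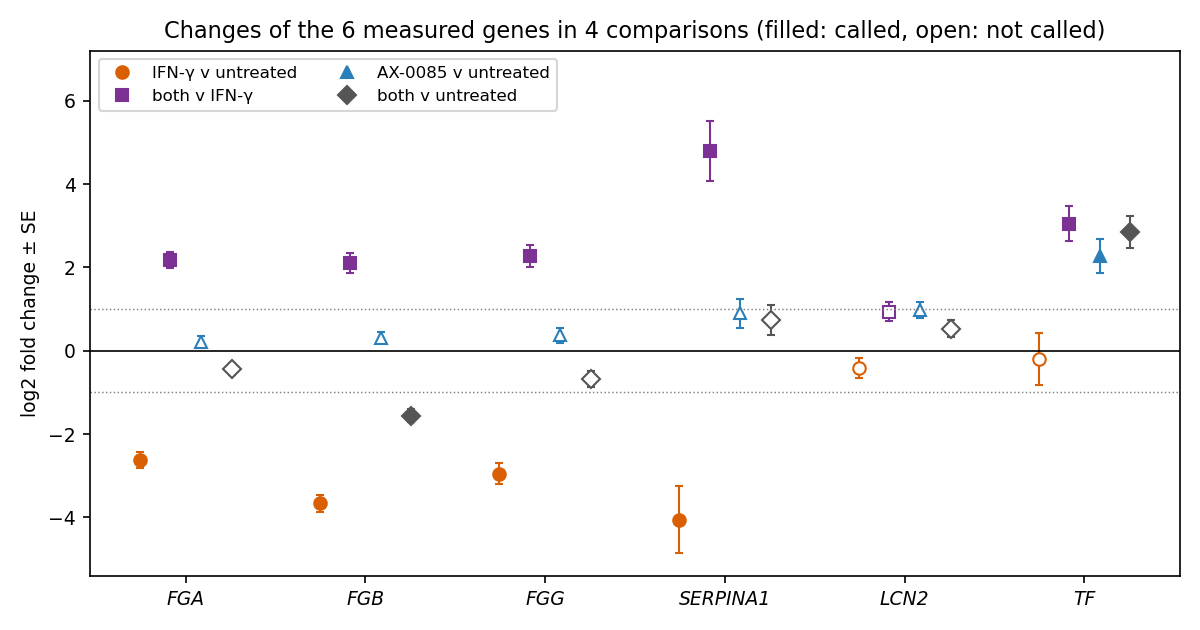
Log2 fold changes with standard errors (edgeR, 2 libraries per group) of the 6 measured genes in 4 comparisons, with dotted lines at the 2-fold limits. With IFN-γ the fibrinogen genes and SERPINA1 lay between -4.06 and -2.61, addition of AX-0085 to IFN-γ gave between 2.11 and 4.79 for these 4 genes, and FGB alone of the fibrinogen genes lay beyond the 2-fold limit when both agents were compared with untreated cells, at -1.56.

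When the inhibitor followed IFN-γ, it raised FGA, FGB, FGG, SERPINA1 and TF. FGA rose from 68 and 68 counts to 486 and 276, which is 15.5 and 12.4 CPM with both agents. FGB rose from 47 and 25 counts to 230 and 154, or 7.35 and 6.92 CPM. FGG rose from 29 and 34 counts to 261 and 119, or 8.34 and 5.35 CPM. No IFN-γ library reached the level of either library with both agents for any chain. The edgeR quasi-likelihood test with Benjamini-Hochberg adjustment gave log2 fold changes of 2.17 for FGA (SE 0.20, adjusted p = 5.56e-07), 2.11 for FGB (SE 0.24, adjusted p = 4.02e-06) and 2.27 for FGG (SE 0.27, adjusted p = 7.83e-06). For FGB this was 1.52 without IFN-γ replicate 2 and 2.82 without replicate 1.

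SERPINA1 rose from 0 and 1 counts to 27 and 14, a ratio of summed and scaled counts of 33.6 (95% exact interval 5.70 to 1358). It passed the edgeR quasi-likelihood test with Benjamini-Hochberg adjustment (adjusted p = 5.73e-05), and the fitted log2 change of 4.79 became 4.08 without IFN-γ replicate 1 and 7.31 without replicate 2. TF rose from 2 and 7 counts to 49 and 43, or from 0.106 and 0.281 to 1.57 and 1.93 CPM, with a log2 fold change of 3.05 (SE 0.42) and 3.97 without IFN-γ replicate 2. LCN2 had 70 and 47 counts with both agents, or 2.24 and 2.11 CPM, against 1.00 and 1.25 with IFN-γ. Its log2 difference of 0.94 (SE 0.22) had an adjusted p of 0.00225 in the edgeR quasi-likelihood test with Benjamini-Hochberg adjustment but lay just inside the 2-fold limit. So 5 of the 6 measured genes were called higher, where 16.5% of all genes tested were called higher and 8.28% lower.

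With the inhibitor alone TF rose, and no fibrinogen gene passed the test. FGA had 25.3 and 19.0 CPM in AX-0085 libraries against 20.7 and 17.4 in untreated ones, and these groups overlapped. FGB had 27.1 and 25.3 CPM against 21.8 and 20.3, and FGG had 16.6 and 12.2 CPM against 11.9 and 10.3. For FGB and FGG the groups did not overlap. The smallest exact permutation p of 2 libraries against 2 is 0.333, so this alone is no sign of a change. Their log2 differences were 0.21 (SE 0.14) for FGA, 0.31 (SE 0.14) for FGB and 0.37 (SE 0.17) for FGG, with adjusted p of 0.234, 0.0676 and 0.0908 in the edgeR quasi-likelihood test with Benjamini-Hochberg adjustment. TF rose 4.83-fold, from 9 and 4 counts to 33 and 27, with a log2 fold change of 2.27 (SE 0.42) and an adjusted p of 4.77e-04 in the same edgeR quasi-likelihood test. LCN2 went from 1.52 and 1.51 CPM to 3.03 and 2.94, without overlap, a 1.96-fold difference with an adjusted p of 8.15e-04 that stopped short of the 2-fold limit. SERPINA1 had 22 and 22 counts against 14 and 11, a log2 difference of 0.89 (SE 0.36) at an adjusted p of 0.05004, just past the threshold. Hence TF was the 1 gene of 6 called higher, while 6.41% of all genes tested were called higher and 5.62% lower.

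Cells with both agents were then set beside each of the other controls, with which these comparisons share libraries. Against untreated cells FGB was lower by 1.56 on the log2 scale (SE 0.15), which is 2.94-fold, with an adjusted p of 2.03e-06 in the edgeR quasi-likelihood test with Benjamini-Hochberg adjustment. FGA was 1.36-fold and FGG 1.59-fold below the untreated level (log2 differences -0.44, SE 0.15, and -0.67, SE 0.19), with adjusted p of 0.0227 and 0.00792, and neither exceeded the 2-fold limit. As group means, FGA stood at 73.4%, FGG at 61.7% and FGB at 33.9% of the untreated CPM. TF was 7.18-fold higher than in untreated cells, while SERPINA1 (log2 0.73, SE 0.36) and LCN2 (log2 0.53, SE 0.20) were not called. This made 1 gene called lower and 1 called higher, against 7.23% and 7.51% of all genes. Leaving out IFN-γ + AX-0085 replicate 1 brought FGG to -1.02 and made the genes called lower 2.

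Against AX-0085 alone, IFN-γ + AX-0085 cells had 3.66-fold less FGB (log2 -1.87, SE 0.15) and 2.06-fold less FGG (log2 -1.04, SE 0.18), with adjusted p of 2.51e-06 and 8.63e-04 in the edgeR quasi-likelihood test with Benjamini-Hochberg adjustment. These were 2 of the 6 measured genes, and 1.73% of all genes tested were called lower in this comparison. The FGG call was at the 2-fold limit and was lost without AX-0085 replicate 1 (-0.81) or without IFN-γ + AX-0085 replicate 2 (-0.78). FGA differed by -0.65 (SE 0.15, edgeR adjusted p = 0.00448) and stayed inside the limit. LCN2, SERPINA1 and TF gave log2 differences of -0.45 (SE 0.18), -0.16 (SE 0.32) and 0.57 (SE 0.29) and were not called.

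Whether AX-0085 acted differently with and without IFN-γ was tested by the interaction term, the log2 change with AX-0085 in the presence of IFN-γ minus that in its absence. It was 1.96 for FGA (SE 0.25, adjusted p = 2.74e-05), 1.80 for FGB (SE 0.28, adjusted p = 1.45e-04) and 1.90 for FGG (SE 0.33, adjusted p = 3.79e-04) in the edgeR quasi-likelihood test with Benjamini-Hochberg adjustment. The FGB value was 2.51 without IFN-γ replicate 1 and 1.196 without replicate 2. For SERPINA1 it was 3.90 (SE 0.91, edgeR adjusted p = 0.00308), and between 3.19 and 6.41 when either IFN-γ library was left out. These 4 of 6 genes were called higher, with 12.1% of all genes tested called higher. LCN2 (-0.04, SE 0.30) and TF (0.78, SE 0.69) had no called interaction, TF standing at 1.68 without IFN-γ replicate 2. Their changes with AX-0085 were 0.97 and 2.27 without IFN-γ and 0.94 and 3.05 with it.

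The 3 fibrinogen chains assemble in equal numbers, so their counts were compared within each library, where the ratio does not depend on the scaling. The ratio of FGB to FGA counts was 1.05 and 1.17 in untreated and 1.07 and 1.33 in AX-0085 libraries, but 0.691 and 0.368 in IFN-γ and 0.473 and 0.558 in IFN-γ + AX-0085 libraries. All 4 libraries with IFN-γ lay below all 4 without, with or without the inhibitor. The geometric mean was 0.509 with and 1.15 without IFN-γ, a log2 difference of -1.18 (SD of the log2 ratios 0.38 and 0.15, n = 4 and 4). A two-sided exact permutation test gave p = 0.0286, the smallest that 4 libraries against 4 can give, and 0.0571 after Benjamini-Hochberg adjustment over the 6 ratio tests made.

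FGG to FGB had the opposite direction, at 0.548 and 0.505 in untreated, 0.612 and 0.484 in AX-0085, 0.617 and 1.36 in IFN-γ and 1.13 and 0.773 in IFN-γ + AX-0085 libraries. The highest library without IFN-γ and the lowest with it nearly touched. FGA to FGG was 1.73 and 1.69, then 1.52 and 1.55, and with IFN-γ it was 2.34 and 2, or 1.86 and 2.32 after the inhibitor. Both ratios separated the libraries with IFN-γ from those without, with log2 differences of 0.79 and 0.39 and the same exact permutation p of 0.0286 (0.0571 adjusted). In each library any ratio is fixed by the other 2, so these tests are not separate evidence. Pooled over IFN-γ, libraries with AX-0085 did not separate from those without it, with log2 differences of 0.07 for FGB to FGA, 0.04 for FGG to FGB and -0.11 for FGA to FGG (adjusted exact permutation p of 0.914, 0.914 and 0.814). The pooling puts the IFN-γ difference into the spread, so this test cannot show a smaller shift with AX-0085. Without IFN-γ, FGA to FGG was lower in both AX-0085 libraries than in both untreated ones, and the other ratios overlapped. With IFN-γ every ratio overlapped. Differences within these pairs were not tested. The IFN-γ libraries rest on 25 to 68 counts per chain, which limits the precision of each ratio.

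**Figure D3:**
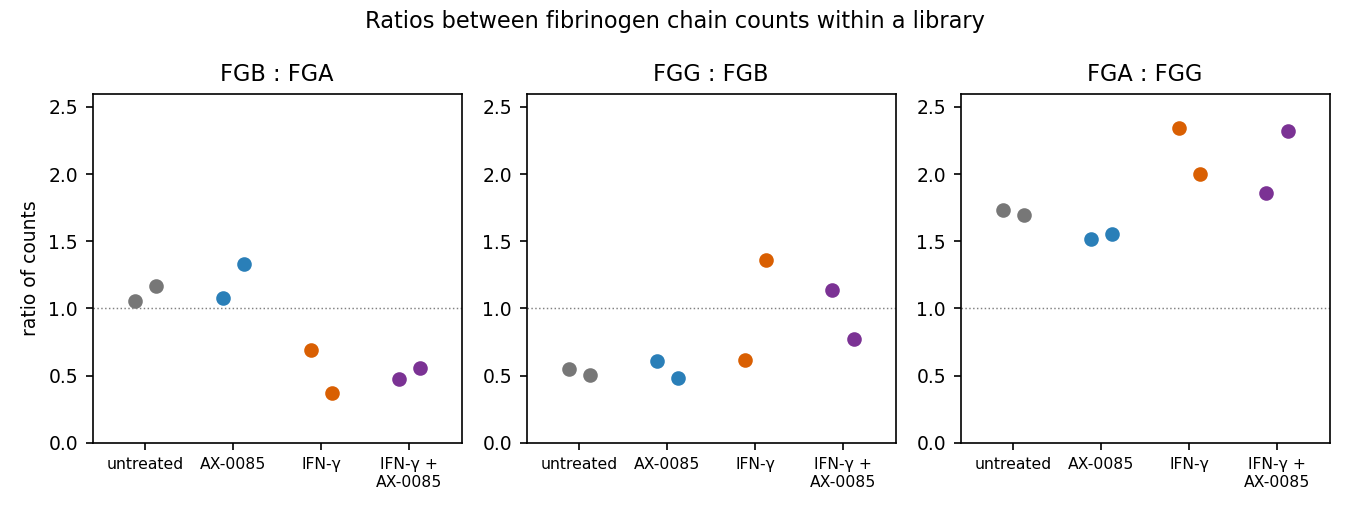
Ratio of counts between fibrinogen chain genes within each library, 2 points per group, linear axis from 0 with a dotted line at equal counts. FGB to FGA lay between 1.05 and 1.33 in the 4 libraries without IFN-γ and between 0.368 and 0.691 in the 4 with it.

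Genes with the most similar pattern over the 8 libraries were found by the Euclidean distance between centred log2 CPM values among 10131 genes. For FGG the nearest was FGA, at 0.63 log2 units (Pearson's r = 0.992 over 8 libraries, given as a description since libraries of a group share their treatment), followed by MAPT and TSPAN13. FGA was nearest to ARHGAP18 at 0.49, then ALX1 and MAPT. FGB was farther from every gene, with TM4SF4, NDRG4 and CTSV at 1.11, 1.27 and 1.36, and FGG at 1.46. LCN2 had the vitamin C transporter gene SLC23A2 at 0.19, and TF had the mucin gene MUC5AC at 1.27.

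Other plasma protein genes were counted in a list of 28 positive acute-phase genes that does not hold the 8, of which 15 were expressed enough to be tested. With IFN-γ 7 of the 15 were called lower and 4 higher, and the median log2 change was -1.08, against -0.06 over all genes tested. With AX-0085 added, 9 were called higher and 3 lower, with a median of 1.79 against 0.03. The inhibitor alone gave 6 called higher and 2 lower, with a median of 0.99 against 0.01. Over all genes tested, 17.2% were called lower and 10.3% higher with IFN-γ. The shares were 16.5% higher and 8.28% lower upon addition, and 6.41% higher and 5.62% lower with AX-0085 alone. SERPINF2, which encodes the plasmin inhibitor α2-antiplasmin, fell 6.20-fold with IFN-γ, from 165 and 116 counts to 15 and 21, and rose 11.9-fold upon addition of AX-0085. FGL1, a fibrinogen-like secreted protein of the liver, fell 2.75-fold and then rose 6.56-fold. Both genes were also called higher with AX-0085 alone (log2 1.66 for SERPINF2 and 2.16 for FGL1). Complement C3, of the same list, went the other way with IFN-γ, where it rose 4.10-fold, and then differed by -0.86 on the log2 scale, inside the limit. In the list of 24 negative acute-phase and other liver plasma genes, 8 were tested, 5 were called lower with IFN-γ and 6 higher upon addition, with medians of -1.88 and 3.16. The inhibitor alone gave 4 called higher and 0 lower, with a median of 1.03. The shares over all genes are those given above. APOH, which encodes β2-glycoprotein I, had 257 and 219 counts in untreated and 420 and 453 in AX-0085 libraries. It had 6 and 6 in IFN-γ and 267 and 199 in IFN-γ + AX-0085 libraries. AMBP fell 2.55-fold with IFN-γ and rose 3.66-fold upon addition, and it was also called higher with AX-0085 alone (log2 1.09).

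Several IL-6 type signalling genes, which act upstream of fibrinogen in the liver, rose with IFN-γ and fell when the inhibitor followed. IL6 itself had 48 and 66 counts with IFN-γ, 0 in all untreated and IFN-γ + AX-0085 libraries and 1 and 0 with AX-0085, so it was at least 47.5-fold higher with IFN-γ than in untreated cells when these are set at 3 counts over the group. IL11, a further gp130 cytokine, rose 19.9-fold with IFN-γ and fell 24.4-fold upon addition of AX-0085. OSMR, the oncostatin M receptor, rose 3.14-fold and fell 3.67-fold, and SOCS3, a feedback inhibitor of gp130 signalling, rose 8.04-fold and fell 9.71-fold. Neither IL6R nor IL6ST, the genes of the IL-6 receptor and of gp130, was called with IFN-γ (log2 -0.41, SE 0.11, and 0.65, SE 0.07). Of 20 tested genes of this list, 7 were called higher and 3 lower with IFN-γ, and 3 higher and 9 lower upon addition, with median log2 changes of 0.55 and -0.51. AX-0085 alone gave 1 higher and 2 lower, with a median of 0.12. The 2 lower genes were IL11, which fell 2.83-fold, and SOCS3, which fell 2.21-fold. Of all genes tested, 10.3% were called higher and 17.2% lower with IFN-γ. The shares were 16.5% and 8.28% upon addition, and 6.41% and 5.62% with AX-0085 alone. STAT3 changed by 0.45 with IFN-γ, within the limit, and fell by 1.07 upon addition. IL11RA, whose whole span lies inside other genes, and IL6R rose 6.29-fold and 2.45-fold upon addition. IL6R was also called higher with AX-0085 alone (log2 1.23).

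**Figure D4:**
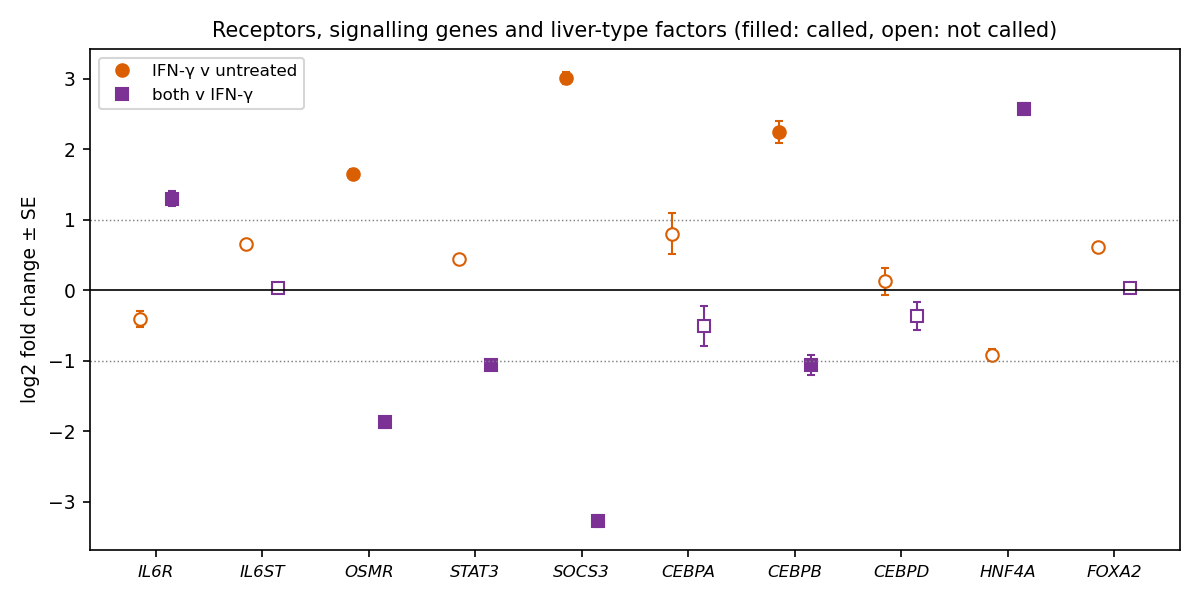
Log2 fold changes with standard errors (edgeR, 2 libraries per group) of IL-6 type receptors and signalling genes and of C/EBP and hepatocyte factors, with IFN-γ against untreated cells (circles) and with both agents against IFN-γ (squares). SOCS3 went from 3.01 to -3.28, CEBPB from 2.24 to -1.06, and HNF4A from -0.92 to 2.57.

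Transcription factors of the C/EBP and hepatocyte types, some of which are known to act on fibrinogen promoters, went in different directions. CEBPB rose 4.72-fold with IFN-γ and fell 2.09-fold upon addition of AX-0085, and CEBPG rose 4.83-fold with IFN-γ, while CEBPA (log2 0.80, SE 0.29) and CEBPD (log2 0.12, SE 0.19) were not called in that comparison. HNF4A had 876 and 731 counts in untreated and 1258 and 1505 in AX-0085 libraries. It had 287 and 395 in IFN-γ and 2860 and 2065 in IFN-γ + AX-0085 libraries. Its log2 difference with IFN-γ was -0.92 (SE 0.09), within the limit, and it rose 5.93-fold upon addition. FOXA2 (log2 0.60 and 0.03) was called in neither comparison. ONECUT2 fell 2.56-fold with IFN-γ and rose 3.01-fold upon addition. Of 19 tested factors, 3 were called higher and 3 lower with IFN-γ, and 6 higher and 1 lower upon addition, with median log2 changes of 0.12 and 0.42. AX-0085 alone gave 3 higher and 0 lower, with a median of 0.36. Of all genes tested, 10.3% were called higher and 17.2% lower with IFN-γ, so the count of factors called lower was near the general share. The shares were 16.5% and 8.28% upon addition, and 6.41% and 5.62% with AX-0085 alone. With AX-0085 alone, HNF4G rose 2.57-fold and FOXA3 2.03-fold, and the FOXA3 call was lost without untreated replicate 2 (log2 0.98). CEBPA was called higher with IFN-γ without the same library (log2 1.26).

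Among receptors, targets and iron partners of the 8 proteins, 20 genes were tested, 7 were called lower and 2 higher with IFN-γ, and 9 higher and 2 lower upon addition, with medians of -0.91 and 0.87. AX-0085 alone gave 1 higher and 2 lower, with a median of 0.01. Of all genes tested, 17.2% were called lower and 10.3% higher with IFN-γ. The shares were 16.5% higher and 8.28% lower upon addition, and 6.41% and 5.62% with AX-0085 alone. SLC22A17, the lipocalin-2 receptor gene, fell 8.32-fold with IFN-γ and rose 7.33-fold upon addition, although LCN2 was called in neither comparison. The transferrin receptor genes TFRC and TFR2 fell 3.03-fold and 3.14-fold with IFN-γ. TFR2 rose 3.83-fold upon addition, and TFRC differed by 0.99 on the log2 scale, just inside the limit, which it passed without IFN-γ replicate 2 (1.08) or IFN-γ + AX-0085 replicate 2 (1.002). LRP1, a receptor that takes up complexes of proteases and their inhibitors, had a log2 difference of -0.67 (SE 0.13) with IFN-γ, within the limit, rose 6.22-fold upon addition and rose 3.06-fold with AX-0085 alone. TGM2, a tissue transglutaminase that crosslinks proteins including fibrin, rose 2.57-fold with IFN-γ and fell 3.28-fold upon addition. It was also called lower with AX-0085 alone (log2 -1.30). ITGB2, a chain of the leukocyte integrins that bind fibrinogen, was near the 2-fold limit with IFN-γ (log2 -0.99, and -1.14 and called without untreated replicate 2) and rose 3.84-fold upon addition.

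Paralogs and neighbours of the 8 genes gave 5 tested genes of 19, of which 3 were called lower with IFN-γ and the same number higher upon addition, with medians of -1.45 and 1.35. AX-0085 alone gave 1 higher and 0 lower, with a median of 0.59. Of all genes tested, 17.2% were called lower with IFN-γ, 16.5% higher upon addition and 6.41% higher with AX-0085 alone. FIBCD1, which holds a fibrinogen-like domain, fell 2.75-fold and rose 10.8-fold. It was also called higher with AX-0085 alone (log2 1.62). MELTF, a transferrin paralog, fell 2.74-fold and rose 2.04-fold, the latter call being lost without IFN-γ replicate 2 (log2 0.90).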

How the data were processed

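Per the labels and the paper's methods, the authors prepared stranded mRNA libraries (TruSeq), trimmed the paired reads with Trim Galore 0.6.7, mapped them to GRCh38 with STAR 2.7.9a and counted them per gene with featureCounts. The deposited values are whole-number counts per Ensembl gene without normalization. The annotation release, strand setting and treatment of overlapping genes in the counting are not given in the sources used here. Positions, types and overlaps come from GENCODE 44, which held 60463 of the 60664 identifiers, and promoters from a RefSeq table that matched 7 of the 8 genes, all but HP.

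Counts were filtered with filterByExpr, leaving 15066 genes, scaled by TMM and tested by the quasi-likelihood F-test of edgeR 4.0.16 (R 4.3.3), where a single fit without covariates covered the 4 groups and their 8 libraries. The authors' tool, DESeq2 (1.42.0 here), was an alternative. A gene was called when it changed more than 2-fold and its p, adjusted after Benjamini and Hochberg over all genes, was below 0.05. Standard errors are the log2 fold change divided by the square root of F. CPM use TMM-scaled library sizes. A pair of libraries cannot give an exact permutation p below 0.333 against another pair, so single genes were tested in the model alone. Chain ratios were compared by exact permutation, 4 libraries against 4. The model was tested on simulated counts. Changes were planted only in genes with higher mean counts than SERPINA1 and TF, and all genes had the same spread. That test therefore does not cover the calls of SERPINA1 and TF. Counting intervals cover counting error only.

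The text names the 8 genes, 14 genes by role, up to 3 called genes per list and comparison whose mean log2 CPM reached 1, and, among genes whose mean reached 2, the 3 nearest in pattern to each measured gene. A few genes that this rule names are not reported here. The 8 genes and all lists were chosen with earlier results of these data known, and some of the genes stand in lists that the study drew from these samples, so counts over them are not independent evidence. Alternatives were RLE factors, library size alone, DESeq2, no filter or at least 10 counts in every library, only the groups compared, adjusted p alone, glmTreat, a replicate block and leaving out each library.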

Additional observations from a re-analysis of the deposited data

Results flagged for a closer look

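The change with AX-0085 differed by the presence of IFN-γ in 4 of the 6 measured genes, by the interaction term of the edgeR quasi-likelihood test with Benjamini-Hochberg adjustment over 15066 genes. Of all genes tested, 12.1% were called higher by this term. For FGA the log2 change was 2.17 with and 0.21 without IFN-γ, a difference of 1.96 (SE 0.25). FGB gave 2.11 and 0.31, a difference of 1.80 (SE 0.28), and FGG gave 2.27 and 0.37, a difference of 1.90 (SE 0.33). SERPINA1 gave 4.79 and 0.89, a difference of 3.90 (SE 0.91) that rests on 0 and 1 counts in the IFN-γ libraries. In each of these genes the IFN-γ libraries were the lowest of the 8. Groups of 2 libraries are too small for a check of single outlying libraries.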

How the results depend on the processing

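The 4 genes called lower with IFN-γ, the 3 fibrinogen genes and SERPINA1, kept that direction and their call under every alternative that tested them, as they did when AX-0085 was added and in the interaction. SERPINA1 and TF have too few counts for the filter of at least 10 counts in every library, under which 3 genes were called higher upon addition of AX-0085, 0 with AX-0085 alone and 0 with both agents against untreated cells. Of all 12379 genes past that filter, 1568, 520 and 684 were called higher in these comparisons. At an unadjusted p under 0.05 in this edgeR fit of the 4 remaining genes, 2 and 1 were higher in the last 2 comparisons, where DESeq2 on all 6 called 1 each. With adjusted p alone, 2 genes were higher with AX-0085 alone, and 2 higher and 3 lower with both agents against untreated. By that rule 4018 of all 15066 genes were higher in the first comparison, and 4234 higher and 4339 lower in the second. Of the 2 genes lower with both agents against AX-0085, glmTreat kept 1, and leaving out a library gave 1 to 2. Over all genes tested, glmTreat called 18 lower in this comparison. Both agents against untreated gave 1 to 2 genes lower when a library was left out. Scaling by library size alone shifted the median of all genes by -0.12 in the IFN-γ comparison and by 0.12 when the inhibitor followed, and brought LCN2 past the 2-fold limit upon addition (1.06), as did leaving out IFN-γ replicate 2 (1.11). That scaling also brought HNF4A (-1.03) and ITGB2 (-1.11) past this limit with IFN-γ, and TFRC (1.11) upon addition. The cause of these shifts was not tested. Upon addition, the calls of STAT3 and CEBPB were lost with library size alone and with glmTreat, and that of MELTF with RLE factors, DESeq2, glmTreat and without IFN-γ replicate 2, in the same direction. With AX-0085 alone, glmTreat also ended the calls of IL6R, SOCS3, AMBP, HNF4G and FOXA3. The FOXA3 call was lost without untreated replicate 2 as well.

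Reversals touched values that were not called. Leaving out a library gave log2 changes from -1.08 to 0.37 for TF and -0.19 to 0.57 for CEBPD with IFN-γ, -0.054 to 0.091 for IL6ST upon addition, -0.0060 to 0.41 for FGA with AX-0085 alone, -0.41 to 0.023 for SERPINA1 with both agents against AX-0085 and -0.18 to 0.13 for the LCN2 interaction, which was 0.080 with library size alone. RLE factors and DESeq2 gave -0.013 for IL6ST upon addition, and -0.0075 and -0.0074 for FOXA2. The AX-0085 differences of the chain ratios ranged from -0.27 to 0.31 for FGB to FGA and from -0.18 to 0.36 for FGG to FGB. Canonical transcript length, chosen after seeing the data, gave untreated levels of 8.62 for FGA, 5.79 for FGB, 5.36 for FGG, 0.152 for SERPINA1 and 1.85 for LCN2.

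Same-numbered libraries of different groups had correlations of their deviations between -0.07 and 0.04. With 2 libraries per group this cannot tell whether they shared a culture or batch. The deposited names put same-numbered libraries under the same letter, and what the letter stands for is not given. With a replicate block, 4 genes were lower with IFN-γ and 5 higher upon addition, and FGB changed by -3.66 and 2.09. Over all 15066 genes tested, the block gave 2561 lower and 2456 higher in these comparisons. Depth limits SERPINA1 and TF, with at most 27 and 49 counts in a library.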

Other observations

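Clotting and transport protein genes of the liver lists that are not named above were looked at after their values were seen. CP, which encodes the copper-carrying ferroxidase ceruloplasmin, had 850 and 681 counts in untreated, 156 and 203 in IFN-γ, 840 and 666 in IFN-γ + AX-0085 and 1595 and 1544 in AX-0085 libraries. Its log2 changes were -1.77 with IFN-γ and 1.79 when AX-0085 followed, both called by the edgeR quasi-likelihood test with Benjamini-Hochberg adjustment. SERPINA6, the gene of corticosteroid-binding globulin, had 76 and 69 counts in untreated, 0 and 0 in IFN-γ, 68 and 49 in IFN-γ + AX-0085 and 223 and 243 in AX-0085 libraries. F2, the prothrombin gene, had 85 and 69, then 11 and 12, then 82 and 76 in the first 3 of these groups and 60 and 47 with AX-0085 alone. These genes had lower counts in both IFN-γ libraries than in all other libraries, as the fibrinogen genes had.

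The clotting factor genes F7 and F10 were low without AX-0085 and high with it, as TF was. F7 had 7 and 12 counts in untreated and 7 and 6 in IFN-γ libraries, against 56 and 83 with AX-0085 and 125 and 103 with both agents. F10 had 3 and 2, then 2 and 0, against 11 and 28 and 50 and 51. Both were called higher with AX-0085 alone (log2 2.93 and 2.98), and neither was called with IFN-γ (log2 -0.22 and -0.92). SERPING1, the complement C1 inhibitor gene, had 2 and 0 counts in untreated and 3 and 4 in AX-0085 libraries, 253 and 297 in IFN-γ libraries and 104 and 93 when the inhibitor followed.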
